A study of Homo sapiens with 2 samples.

Results

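The mRNAs that encode the chains of cytoplasmic dynein were examined in an RNA immunoprecipitation (RIP) of Huh-7, a long-established line derived from a human hepatocellular carcinoma. In RIP sequencing, RNA that comes down with an antibody (the IP) is sequenced beside RNA of the lysate it came from (the input). The series held 1 IP library, made from 90% of the lysate of untreated wild-type Huh-7 cells, and 1 input library, made from the other 10%. The series text names the IP as one of SRSF7, a serine/arginine-rich splicing factor, whereas the sample protocol names an antibody against YTHDF2, a reader of m6A in mRNA, so the libraries are called the IP and the input here. Members were taken by symbol from a list of 10 dynein genes that had been chosen by their IP to input ratios and their peaks in these same libraries, so those values are a description. Of the 10 genes, 9 were found among the 25556 genes of the expression table. DYNC2H1, the second heavy chain on the list, was not analysed here, which leaves 1 heavy chain, 1 intermediate chain, 2 light intermediate chains and 5 light chains.

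Cytoplasmic dynein is the motor that carries vesicles, organelles and other cargo toward the minus ends of microtubules and helps to position nuclei and mitotic spindles. Its very large heavy chain holds the ring of ATPase modules and the microtubule-binding stalk. The intermediate chain and light intermediate chains bind the tail of the heavy chain, and the small light chains of the DYNLL, DYNLRB and DYNLT families dock on the intermediate chain. The complex dynactin and a set of coiled-coil adaptors link the motor to cargo and switch it on.

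Reads assigned to genes numbered 5897293 in the IP and 2782045 in the input. Since each group has 1 library, no value below has a replicate check and no test was made. Ratios compare shares of each library and do not give the amount of RNA brought down. Intervals are 95% intervals of counting error only. Among genes with 1 to 20 reads, 77.3% had an even number of reads, a share the libraries had in common, the pattern left where each mate is counted separately. Intervals that take each read as independent would then be too narrow, so those with read numbers halved are given beside the closest comparisons. All 8 hepatocyte markers were present, at 49.1 to 1613 RPKM (reads scaled to exon length and library size) in the IP and 54.5 to 2814 RPKM in the input. Markers of multiciliated cells, which use axonemal dyneins, summed to 1.89 RPKM in the IP and 0.700 RPKM in the input over 5 genes. Cholangiocyte markers were mixed. KRT19 had 48.6 RPKM in the IP and 35.1 RPKM in the input, and EPCAM 39.4 and 51.9 RPKM. KRT7 had only 0.636 RPKM in the IP and 0.719 RPKM in the input, and CFTR 0.614 and 1.05 RPKM. The 5 immune markers summed to 86.95 RPKM in the IP and 151.3 RPKM in the input, nearly all from LYZ (70.2 and 132.8 RPKM) and CD68 (14.03 and 12.80 RPKM), whereas PTPRC, the pan-leukocyte marker, had 1.30 and 2.20 RPKM. Fibroblast markers summed to 3.58 RPKM in the IP and 2.15 RPKM in the input, and endothelial markers to 2.70 and 3.99 RPKM. The part of these markers in the values below was not tested.

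The heavy chain mRNA had the highest IP to input ratio of the 8 dynein chains with a mean of at least 1 RPKM. DYNC1H1 (chromosome 14, 101964573 to 102056443, plus strand) encodes the heavy chain of dynein-1, the form that works throughout the cytoplasm. It had 24.1 RPKM in the IP and 7.09 RPKM in the input, from 5223 and 726 reads. Its ratio was 3.39 (interval 3.14 to 3.67, or 3.04 to 3.80 with read numbers halved). DYNC1H1 held the largest part of the family's reads in the IP and not in the input: it took 47.4% of the reads of all 9 genes in the IP (46.5 to 48.4%, exact binomial) and 22.0% in the input (20.6 to 23.5%).

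The intermediate chain stood well below the heavy chain, and the light intermediate chains lower still. DYNC1I2 (chromosome 2, 171687409 to 171750158, plus strand) encodes the intermediate chain that joins the motor to dynactin. It had 36.4 RPKM in the IP and 26.1 RPKM in the input, a ratio of 1.39 (1.25 to 1.55). DYNC1LI1 (chromosome 3, 32525974 to 32570858, minus strand) and DYNC1LI2 (chromosome 16, 66720893 to 66751609, minus strand) encode the light intermediate chains, which hold cargo adaptors. DYNC1LI1 had 12.6 RPKM in the IP and 15.9 RPKM in the input, a ratio of 0.795 (0.682 to 0.928). DYNC1LI2 had 14.3 RPKM in the IP and 15.6 RPKM in the input, a ratio of 0.914 (0.803 to 1.04). The ratio of DYNC1LI2 over that of DYNC1LI1 was 1.15 (0.943 to 1.40), so these paralogs were not separable at this depth.

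The light chains differed in their ratios. DYNLL1 (chromosome 12, 120469850 to 120498493, plus strand) and DYNLL2 (chromosome 17, 58083419 to 58095542, plus strand) encode close relatives of the LC8 type, a hub that dimerises many proteins besides dynein. DYNLL1 was the most abundant member, with 87.4 RPKM in the IP and 109.5 RPKM in the input, and its ratio was 0.798 (0.734 to 0.868). DYNLL2 had 23.1 RPKM in the IP and 14.2 RPKM in the input, a ratio of 1.63 (1.42 to 1.87). The paralogs thus fell on opposite sides of 1 as deposited, and the ratio of DYNLL2 was 2.04 times that of DYNLL1 (1.74 to 2.39, or 1.63 to 2.55 with read numbers halved), a comparison that the scaling between the libraries does not touch. The side of 1 on which DYNLL1, DYNC1LI1 and DYNC1LI2 lay does depend on it: with each library scaled to the same RPKM sum their log2 ratios were 0.92, 0.87 and 1.06.

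DYNLRB1 (chromosome 20, 34516409 to 34540958, plus strand), a light chain of the roadblock type, was near even. It had 44.7 RPKM in the IP and 41.4 RPKM in the input, a ratio of 1.08 (0.939 to 1.25), and its log2 ratio of 0.11 became -0.03 after centring on the median of all genes and -0.27 with scaling to protein-coding reads. DYNLRB1 shares 412 exon bases on its strand with ITCH, a ubiquitin ligase gene that had 1020 reads in the IP and 511 in the input, so part of its reads may be counted for either gene. The other 8 members found shared no exon bases with another listed gene on their strand.

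The Tctex-type light chains were the least abundant. DYNLT1 (chromosome 6, 158636474 to 158644743, minus strand) had 10.4 RPKM in the IP and 4.63 RPKM in the input, from 181 and 38 reads. Its ratio of 2.25 was the highest of the light chains, but rested on few reads (1.58 to 3.28, or 1.35 to 3.88 with read numbers halved). DYNLT3 (chromosome X, 37836757 to 37847571, minus strand) had 2 reads in the IP and 0 in the input, too few for a ratio, and was the only member found whose mean was under 1 RPKM.

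**Figure D1:**
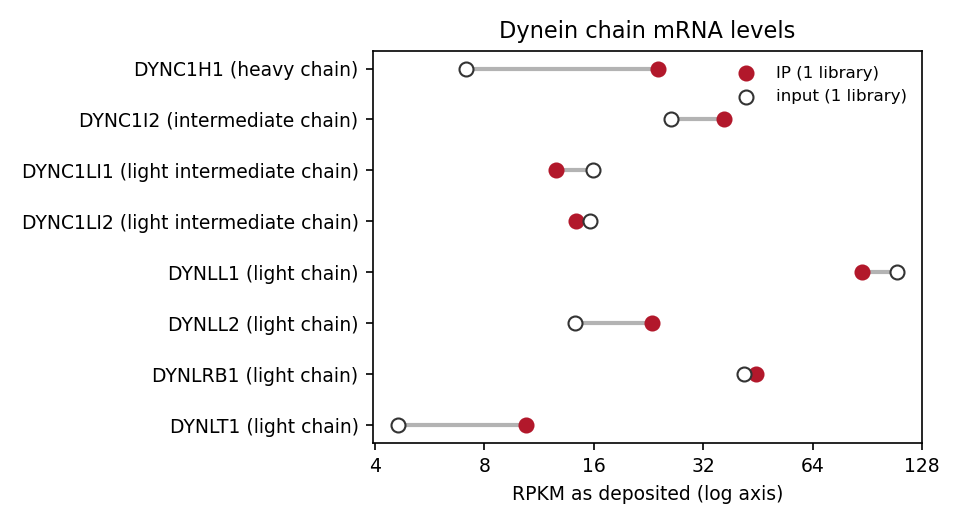
Deposited RPKM of the 8 dynein chains with a mean of at least 1 RPKM, on a log axis; filled points are the IP and open points the input, 1 library each, joined by a line. DYNC1H1 had 24.1 RPKM in the IP against 7.09 in the input, while DYNLL1, with the highest level, had 87.4 RPKM in the IP against 109.5 in the input.

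Levels in RPKM compare genes only as far as the exon lengths in the table fit the transcripts that the cells make. The merged exons of DYNC1H1 came to 36.8 kb in 56 blocks, since the length is the union of all exons listed for the gene, against 2.46 kb for DYNLRB1 and 2.93 kb for DYNLL1. Ratios of IP to input use the same length on both sides and are free of this. Copies of dynein genes elsewhere in the genome had few reads: the pseudogene DYNC1I2P1 had 29 reads in the IP, DYNLL1P2 8 and DYNLL1P1 2, each against 0 in the input. How reads that match a gene and its copy were shared out was not stated in the labels.

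Ordered by ratio, the chains ran DYNC1H1, DYNLT1, DYNLL2, DYNC1I2, DYNLRB1, DYNC1LI2, DYNLL1 and DYNC1LI1. Most neighbours in this order were not separable by counting error. The interval of one ratio over the next excluded 1 for DYNC1H1 over DYNLT1 (1.51, 1.06 to 2.16) and for DYNC1I2 over DYNLRB1 (1.29, 1.08 to 1.53), of which the first included 1 with read numbers halved (0.910 to 2.51). The heavy chain therefore stood apart from DYNLT1 only on the narrower interval. Against the other light chains it stood apart on either: the ratio of DYNC1H1 was 4.26 times that of DYNLL1 (3.80 to 4.77), 3.14 times that of DYNLRB1 (2.67 to 3.68) and 2.09 times that of DYNLL2 (1.79 to 2.44). It was 2.44 times that of DYNC1I2 (2.14 to 2.78), 4.27 times that of DYNC1LI1 (3.60 to 5.06) and 3.71 times that of DYNC1LI2 (3.19 to 4.32).

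**Figure D2:**
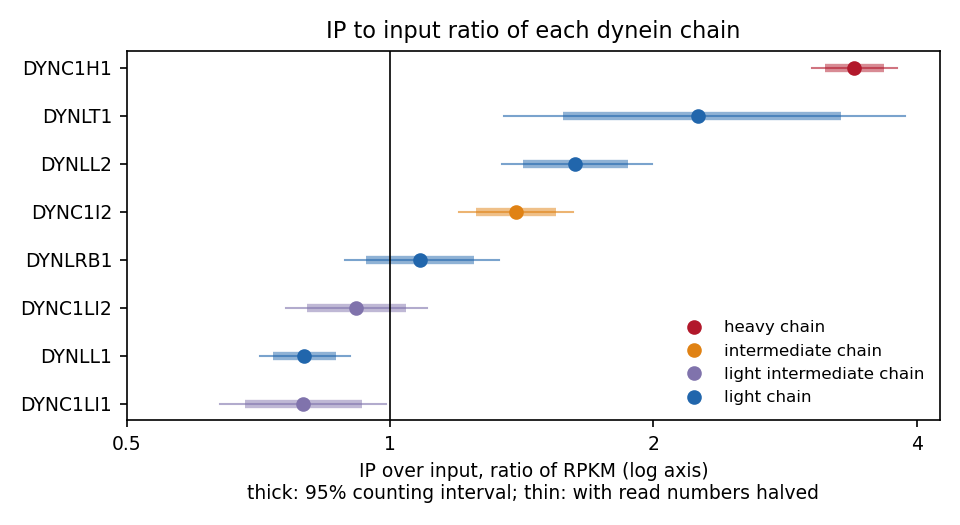
IP over input ratio of RPKM for the same 8 genes on a log axis, coloured by role; thick bars are 95% counting intervals and thin bars the intervals with read numbers halved. DYNC1H1 lies at 3.39, and the light chains are spread from 0.798 for DYNLL1 to 2.25 for DYNLT1.

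On the scale of log2((IP + 1)/(input + 1)) of RPKM, where genes can be set beside one another, DYNC1H1 was at 1.63 and the median of the 4 light chains above the limit of 1 RPKM lay 1.24 lower. Of the 8 chains, 2 passed 2-fold toward the IP, DYNC1H1 and, just past the line at 1.02 (0.88 after centring), DYNLT1, against 11.3% of the 14057 genes that met the same limit. None was at least 2-fold lower, against 8.25% of those genes. The genes were listed with these values in view, so nothing is read from the counts. The median log2 ratio was 0.29 for the 8 chains and 0.14 for all 14057 genes.

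The median ratio was highest in the longest genes, and DYNC1H1 was high among long genes too. When genes were divided into 10 groups of equal size by merged exon length, the median log2 ratio was 0.38 in the longest group (9.48 to 47.9 kb) and lay between 0.06 and 0.24 in the groups from 1.94 to 9.48 kb that hold the other chains. DYNC1H1 ranked 23 of the 1406 genes in the longest group, at percentile 98.4. Of the 92 other genes with at least 20 kb, a limit chosen after the values were seen, 3 had a higher log2 ratio, and their median was 0.47.

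Within their own length groups the smaller chains kept their spread. DYNLT1 was at percentile 93.2 of its group and DYNLL1, of almost the same length, at 28.0. DYNLL2, DYNC1I2 and DYNC1LI1, which share a group, were at percentiles 77.2, 66.4 and 18.1. DYNC1LI2 was at percentile 27.0 and DYNLRB1 at 53.0. Light chains of like length thus stood far apart within their group.

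**Figure D3:**
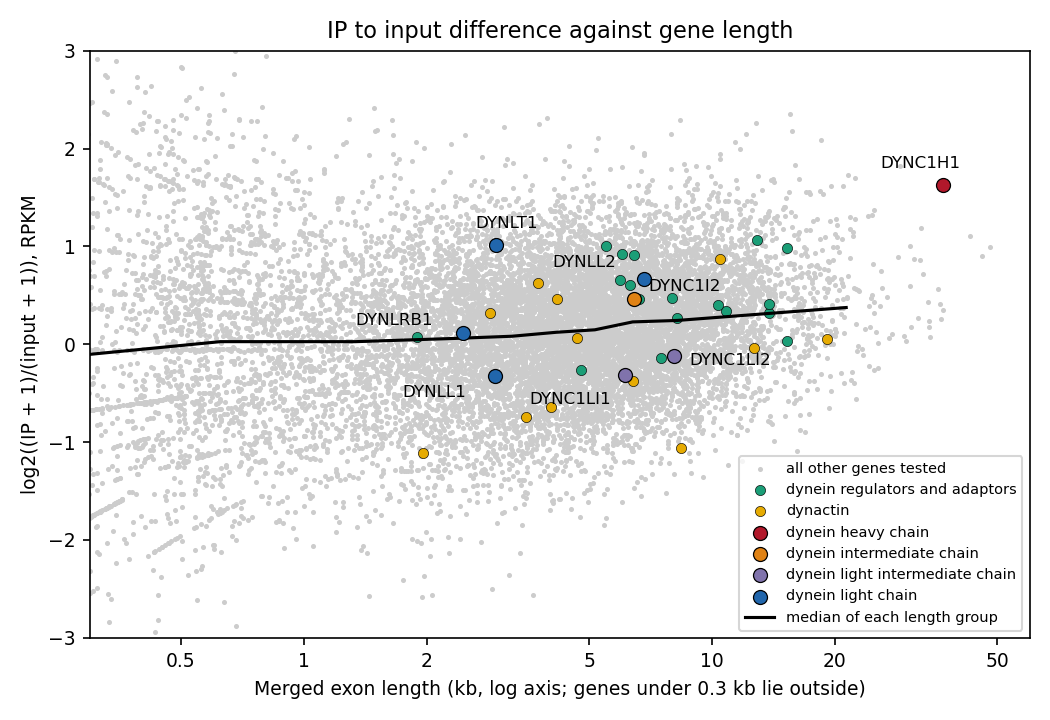
The log2 ratio of IP to input (RPKM + 1) against merged exon length on a log axis for the tested genes (genes under 0.3 kb or beyond 3 in either direction lie outside the plot), with dynein chains, dynactin and dynein adaptors coloured and the median of each of the 10 length groups as a line. DYNC1H1, at 36.8 kb and 1.63, sits far above the line, while the light chains lie on both sides of it.

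Regions enriched in the IP, as the authors called them from the 1 IP and 1 input, were concentrated in the heavy chain gene. Of 7643 peaks, 31 fell in dynein chain genes and 24 of these in DYNC1H1, which ranked 4 among all genes by number of peaks. At least 1 peak was present in 5 of the 8 chains, against 21.4% of the 14057 genes and 13.4 to 54.2% in the length groups that hold the chains. The genes were listed with their peaks in view, so nothing is read from this count. DYNC1I2, DYNC1LI1 and DYNLT1 carried 2 peaks each and DYNLL2 carried 1. DYNLL1, DYNLRB1, DYNC1LI2 and DYNLT3 carried 0. Per kb of merged exon, DYNC1H1 had 0.652 peaks and DYNLT1 0.677, against a median of 0.295 among the 3008 tested genes with a peak.

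Genes with like numbers of IP reads mostly carried fewer peaks than DYNC1H1, but their median length was 6.07 kb of merged exon against 36.8 kb for DYNC1H1. The part of length in the number of peaks was not tested. Among the 84 other genes with between 0.8 and 1.2 times the IP reads of DYNC1H1, the median was 1 peak, 38 had none, and 1, the scaffold gene AHNAK with 34, had at least as many as DYNC1H1. DYNLL1 had 1510 IP reads and no peak, as did 48.1% of the 324 other genes with like numbers of IP reads. DYNLT1, with 181 IP reads, had 2 peaks.

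**Figure D4:**
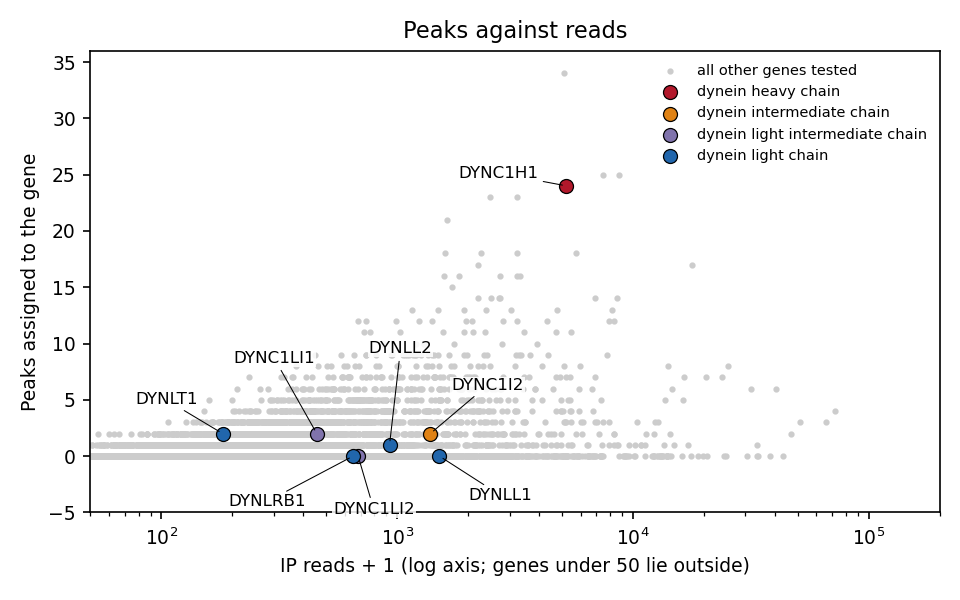
Number of peaks assigned to each tested gene against its IP reads plus 1 on a log axis, with the dynein chains coloured by role. DYNC1H1, with 5223 IP reads and 24 peaks, stands above most genes with like numbers of IP reads, whose median length is 6.07 kb against its 36.8 kb, and the other chains carry 0 to 2 peaks.

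The peaks of DYNC1H1 were spread along the merged exons from the first exon block to the last. Places below are on this union of all listed exons and not on a single mRNA. From the start to the end of each peak, their spans together held 22312 exonic bases, 60.7% of the merged exons. Any gap inside a peak is included, so this is an upper limit on what the peaks cover. The first began 99 bases after the start of the gene (chromosome 14, 101964672 to 101964772) and the last ended 5.62 kb before the end of the merged exons (102050497 to 102050822). By their centres, 12 lay in the first 12.3 kb of the merged exons, 9 in the next 12.3 kb and 3 in the last 12.3 kb. The spans of 16 of the 24 peaks touched more than 1 exon block and those of 8 touched 1. The median span held 390 exonic bases, against 176 over all peaks.

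The fold of a peak is the authors' own value, and its scaling between the IP and the input was not stated in the labels. In the authors' deposited table the folds of the DYNC1H1 peaks ran from 2.10 to 4.32 with a median of 2.72, against 2.71 for all peaks. The highest fold, 4.32, belonged to the peak whose span held the most exonic bases, 5404, reaching into the last exon block (102042498 to 102050272). The next were 3.72 for a peak over 6 exon blocks (102001620 to 102005985) and 3.58 for the peak in the first exon. In 21 of the 24 peaks the fold was under the ratio of the whole gene, 3.39. Of the 24, by the authors' deposited table, 14 had a false discovery rate of at most 0.01 (58.3%, against 25.4% of all peaks), and 5 were above 0.05. Peak numbers in that table run without a gap from 2747 to 2778 across the dynein genes, except for 2764, which is absent from the list and falls between 2 peaks of DYNC1H1.

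**Figure D5:**
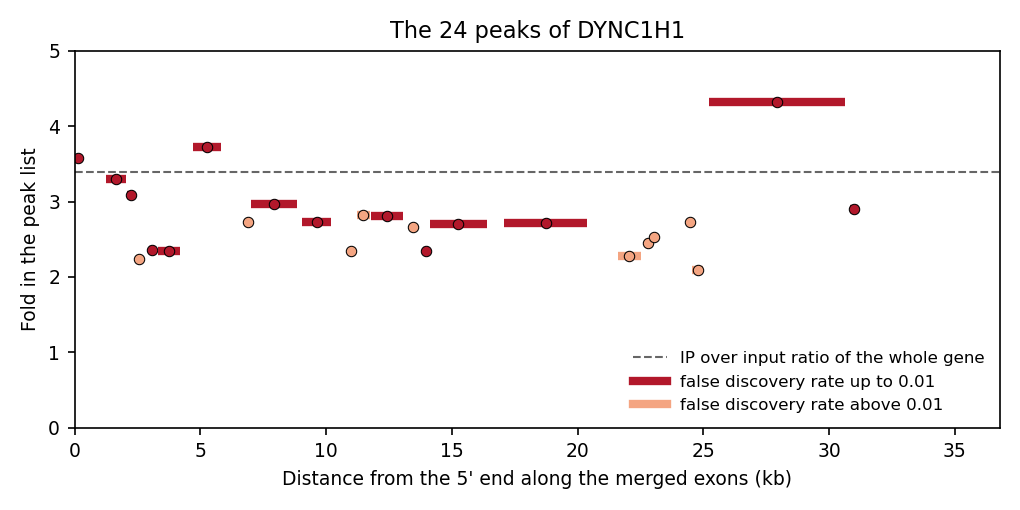
Fold of each of the 24 DYNC1H1 peaks in the authors' deposited table against its place along the merged exons in kb; bars span the exonic extent, points mark centres, dark peaks have a false discovery rate of at most 0.01, and the dashed line is the IP over input ratio of the whole gene. Peaks run from 0.10 to 31.2 kb, and 3 of them lie above the line at 3.39.

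In DYNC1I2 and DYNC1LI1 the peak with the highest fold was short and lay toward the 5' end. Every listed peak has a fold of at least 2, so any peak in these genes is above the ratio of its gene by the make-up of the list. DYNC1I2, with a ratio of 1.39, had a peak of 76 bases (chromosome 2, 171688559 to 171688634) with a fold of 4.55 in the authors' deposited table, the highest in any dynein gene, and a second, over 3 exon blocks, with 2.73. DYNC1LI1, with a ratio of 0.795, had a peak at its first exon (chromosome 3, 32570165 to 32570357) with a fold of 3.09 and another of 51 bases with 2.73. The genes' ratios and the peaks' folds may be on different scales, so their sizes are given side by side only.

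The peaks of the light chains had lower folds. In DYNLT1 the first peak began 5 bases into the gene (chromosome 6, 158641342 to 158644738) with a fold of 2.37, and the second (158637178 to 158637893) had 2.31. The spans of both, with any gap inside them, held 75.2% of its merged exons. The peak of DYNLL2 (chromosome 17, 58089710 to 58089885) had a fold of 2.15 and covered 176 bases of its last exon block. The false discovery rate of these 3 peaks lay between 0.0126 and 0.0432 in the authors' deposited table. A peak that reached the first exon block was present in 3 of the 5 dynein genes with peaks, DYNC1H1, DYNC1LI1 and DYNLT1, against 20.4% of all 3058 genes with a peak.

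None of the remaining subunits of cytoplasmic dynein was as high in the IP as DYNC1H1. Of 7 such genes, 6 had a mean of at least 1 RPKM, with a median log2 ratio of -0.40, 0 at least 2-fold higher and 1 lower, against 11.3% and 8.25% of all 14057 genes. DYNC2I1 (listed as WDR60), an intermediate chain of dynein-2, the ciliary form, had 9.43 RPKM in the IP and 4.41 RPKM in the input, a ratio of 2.14 (1.68 to 2.75) that stayed under 2-fold on the log2(RPKM + 1) scale at 0.95, and carried 2 peaks. DYNC2I2 (listed as WDR34), another dynein-2 intermediate chain, had 8.86 RPKM in the IP and 10.5 RPKM in the input, a ratio of 0.844 (0.633 to 1.13). DYNC1I1, the other dynein-1 intermediate chain, was at 1.37 (0.902 to 2.13). The lowest were the Tctex-type light chains DYNLT2B (listed as TCTEX1D2; 2 reads in the IP and 10 in the input) and DYNLT2 (listed as TCTE3; 12 and 18).

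In dynactin, the partner complex, DCTN1 had the highest ratio. DCTN1, which encodes p150Glued, the arm that binds microtubules and the dynein intermediate chain, had 39.1 RPKM in the IP and 20.8 RPKM in the input, a ratio of 1.88 (1.72 to 2.05), and 3 peaks. DCTN3, a small shoulder subunit, was next at 1.70 (1.17 to 2.54). The lowest were DCTN6, a subunit of the pointed end, at 0.407 (0.266 to 0.621), and CAPZA2, an actin-capping subunit, at 0.435 (0.365 to 0.519). Of the 12 dynactin genes, 0 were at least 2-fold higher and 2 lower, against 11.3% and 8.25% of all 14057 genes, with a median log2 ratio of 0.01, below the 0.14 of all genes.

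Regulators and adaptors that bind dynein lay higher, with a median log2 ratio of 0.44 over 18 genes, 2 of them past 2-fold toward the IP and 0 away from it, against 11.3% and 8.25% of all 14057 genes. After centring on the median of all genes neither of the 2 stayed past 2-fold (0.93 for BICD1 and 0.87 for BICDL1). They were BICD1, an adaptor of the Bicaudal-D family, at 2.94 times its input level (2.15 to 4.11), with 3 peaks, and the related BICDL1 at 2.38 times (1.70 to 3.42), with 2. SPDL1, the kinetochore adaptor Spindly, was lowest, with 24.2 RPKM in the IP and 29.4 RPKM in the input, a ratio of 0.825 (0.727 to 0.937), followed by TRAK2, an adaptor of mitochondria, at 0.897 (0.745 to 1.09). Of the 18 genes, 10 carried 36 peaks between them, where 21.4% of all 14057 genes and 54.2% of those in the longest length group carried a peak. Most of the 18 lie in the length groups of at least 5.73 kb, whose median log2 ratios were 0.23, 0.24 and 0.38. The part of length in the median of the adaptors was not tested. PAFAH1B1, which encodes the dynein regulator LIS1, had a ratio of 1.34 (1.07 to 1.70, each read taken as independent). It lay at percentile 45.45 of the longest length group.

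Heavy chains of axonemal dyneins, which beat cilia and resemble DYNC1H1 in size and structure, were of low abundance. All 12 such genes found had a mean under 1 RPKM and 0 peaks. The most abundant, DNAH14, had 0.542 RPKM in the IP and 0.840 RPKM in the input, from 63 and 46 reads, a ratio of 0.646 (0.435 to 0.966). Next in abundance were DNAH11, with 21 and 17 reads and a ratio of 0.583 (0.293 to 1.18), and DNAH6. DNAH6 had 32 and 6 reads and a ratio of 2.52 (1.04 to 7.36). The ratios thus lay on both sides of 1, and with so few reads no direction is read from them. Of the smaller axonemal chains, 2 had a mean of at least 1 RPKM and neither passed 2-fold or carried a peak. The light intermediate chain DNALI1 had 3.12 RPKM in the IP and 1.29 RPKM in the input, a ratio of 2.42 (1.40 to 4.43) that came to 0.85 on the log2(RPKM + 1) scale. The light chain DNAL4 had 2.23 RPKM in the IP and 2.66 RPKM in the input, a ratio of 0.839 (0.457 to 1.59).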

How the data were processed

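The authors deposited one expression table and one peak table for the IP and the input. Per the submitters' processing notes, Trimmomatic and STAR (version 2.5.3a) were run; no label or header names the gene counter, the peak caller or the genome build, or says whether the molecular tags of 8 bases entered the counting. The expression values are RPKM made by the authors, since the products of value and exon length add up to an equal total for either library. Whole reads were recovered from the deposited RPKM (100% of genes within 0.01 of a read). The peak table holds, per the file headers, for each peak a score, a false discovery rate, a p-value and a fold (ratio). The deposited score is a transform of that rate and was not used. Gene and peak lengths, the other deposited values, are in bases. Every deposited peak had a p-value of at most 0.0499 and a fold of at least 2.

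Coordinates are those of the files. Of 19414 symbols also in the RefSeq gene table of GRCh38.p14, 99.9% overlapped its span there. No genome was used, so coding and untranslated parts were not told apart and no motif or sequence is given.

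The value per gene was log2((IP + 1)/(input + 1)) for a mean of at least 1 RPKM. Single ratios have exact Clopper-Pearson intervals of 2 read counts, ratios of 2 ratios a normal interval on the log scale, shares an exact binomial one. Each peak was given to the same-strand gene with the most exonic bases (at least 1) between the start and the end of the peak. Exonic bases of a peak are those within this span, with any gap inside the peak included. Reads recovered and intervals were checked on simulated data in which every read was drawn independently. That check does not cover mates counted separately, so it does not bear on whether the intervals are too narrow here. No count model and no test were run, since each group has 1 library. All 10 listed genes are reported, with the 2 highest and 2 lowest of each pathway list. AHNAK, DYNC2I2, PAFAH1B1, DNAH6, DNAH11, DNAH14 and the single marker genes of other cell types were added after their values were seen. The members and lists were chosen with earlier results of these data known. 0 columns of other samples were present. Computation was in Python 3.11.15 with scipy 1.17.1, numpy 2.4.6 and pandas 2.3.3; plots were drawn in matplotlib 3.10.9.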

Additional observations from a re-analysis of the deposited data

How the results depend on the processing

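Scaling between the libraries sets the level of every ratio: over all tested genes the median was 0.14 (log2) as deposited, -0.17 when libraries were scaled by protein-coding reads and 1.14 when their RPKM sums were made equal. Among genes past 2-fold, the share higher in the IP was 57.9% as deposited, 44.6% after centring on that median, 29.4% by protein-coding reads and 95.0% with equal RPKM sums. The heavy minus light difference of 1.24 stayed between 1.19 and 1.34 under every alternative except no filter on low values, where DYNLT3 enters the light chain median and it was 1.48. After centring or by protein-coding reads 1 chain was at least 2-fold higher, and with equal RPKM sums 6. The medians of dynactin, of regulators and adaptors and of the other dynein subunits were -0.13, 0.30 and -0.53 after centring, -0.32, 0.12 and -0.73 by protein-coding reads and 0.96, 1.53 and 0.58 with equal RPKM sums. At a mean of at least 5 RPKM, which leaves fewer genes, dynactin was at -0.34 and the other subunits at 0.36, and those subunits were at -0.22 without a filter and -0.55 with a pseudocount of 0.1. At a false discovery rate of at most 0.01, DYNC1H1 had 14 peaks and the other chains 2, and at a fold of at least 3 they had 5 and 2. With read numbers halved, a setting chosen after seeing the data, the ratio of DYNC1H1 was apart from that of 6 chains in place of 7. Of 32 values of single chains, 14 moved by less than their counting interval and 18 by more, and neither chain past 2-fold changed sign. Others did: DYNLRB1 after centring and by protein-coding reads, and DYNLL1, DYNC1LI1 and DYNC1LI2 with equal RPKM sums. Depth leaves DYNLT3 without a ratio, and among the other chains the interval of DYNLT1, with 38 input reads, is the widest relative to its ratio. No paired analysis was possible because each group has 1 library.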
